A study of Mus musculus with 20 samples.

Results

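A set of 8 genes of actin dynamics was followed across 20 arrays of mouse aorta RNA: Pfn1, Cfl1, Arpc4, Flna, Flnc, Dbn1, Limd2 and Map4. They were 8 of 18193 genes that had a probe set annotated with a single gene symbol, and all 8 passed the filter on low signal that left 11081 genes. They were chosen by measured values, as genes with lower signal after rosiglitazone, so their values after rosiglitazone describe the choice and carry no test. Of the 8, 6 had a lower mean signal in the rosiglitazone groups than on chow when the brightest probe set of each gene was used. Flna, and Cfl1 on its brightest probe set, did not have it.

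Rosiglitazone, a drug that activates the nuclear receptor PPARγ, was fed to adult C57BL/6J mice at 3 mg/kg/day for 2 days (3 arrays) or 14 days (3 arrays) or at 10 mg/kg/day for 2 days (3 arrays) or 14 days (2 arrays), and their controls ate the same kind of chow without it (3 arrays). In a second experiment on standard chow, adult mice with a dominant negative P465L change knocked into the endogenous PPARγ gene (3 arrays) were set against wild-type littermates (3 arrays). The knock-in sits in the gene itself, so it is not limited to the vessel wall. The sources used here do not name its strain background, the number of mutant alleles, or the sex and exact age of the mice. An array carried the RNA of 8 pooled aortas, and its signals were on a linear scale with the same trimmed mean of 1500 on each array. Whole aorta was measured, so fewer cells of a type and less RNA per cell cannot be told apart.

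Actin exists as monomers and as filaments that grow at one end and are taken apart at the other. Profilin loads monomers for growth, cofilin severs and disassembles old filaments, and the Arp2/3 complex starts side branches from existing filaments. Filamins and drebrin hold filaments together or line their sides, LIM domain proteins sit at adhesions or in the signalling around them, and microtubule-associated proteins stabilise the second filament system of the cell. In the aorta, smooth muscle cells use this machinery to carry force between the contractile filaments, the cell membrane and the elastic matrix.

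The aortic wall was represented on all arrays. All 7 smooth muscle markers were tested and none was near 0. Myh11, the smooth muscle myosin heavy chain, ranged from 61255 to 91898 over the 20 arrays. The 7 markers summed to 333311 to 486701 on the 11 rosiglitazone arrays and 343526 to 397983 on the chow arrays, and 349100 to 388500 on the P465L arrays against 431672 to 445715 on the littermate arrays. The array medians of all probe sets lay between 321.3 and 450.7.

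To show the DNA in front of genes with unlike values, stretches upstream of 4 of the 8 genes are given from RefSeq (GRCm38.p6), 5′ to 3′ in the direction of the gene. Pfn1 and Map4 had lower signal after rosiglitazone, with and without a difference between the doses, and Flna did not have lower signal. Capitals mark the GC box, GGGCGG or its reverse complement, the letters bound by Sp1-type factors. In Arpc4 they mark the CArG box, the element of serum response factor. The Pfn1 stretch is chr11:70654651-70654770 (minus strand), Map4 is chr9:109931654-109931773 (plus strand) and Flna is chrX:74246535-74246654 (minus strand). Each is the last 120 bases before the annotated start. Arpc4 is chr6:113377863-113377922 (plus strand), the 60 bases farthest upstream in a window of 250.
Pfn1: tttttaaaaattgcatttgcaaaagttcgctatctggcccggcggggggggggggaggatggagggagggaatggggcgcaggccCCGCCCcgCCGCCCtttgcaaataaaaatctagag
Map4: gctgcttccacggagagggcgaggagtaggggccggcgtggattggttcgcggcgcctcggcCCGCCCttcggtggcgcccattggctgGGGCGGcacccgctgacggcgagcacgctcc
Flna: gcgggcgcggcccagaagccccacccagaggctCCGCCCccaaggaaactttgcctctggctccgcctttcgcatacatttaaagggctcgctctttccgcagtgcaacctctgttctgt
Arpc4: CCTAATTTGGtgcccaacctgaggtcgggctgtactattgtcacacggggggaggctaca

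The promoter table matched all 8 genes, with 12 windows of 250 bases before an annotated start. Both strands were searched and overlapping matches were each counted. A GC box was in 8 of the 12 windows, against 32.7% of all 32851 windows. A CCAAT box, with the letters CCAAT, was in 5 of the 12, against 33.8% of all windows. The CArG box was in 1 of the 12 windows, that of Arpc4, against 1.47% of all windows. The PPAR-type direct repeat, searched as AGGTCANAGGTCA, was in 0 of the 12 and in 11 of the 32851 windows. GC boxes thus stood before genes with lower signal (Pfn1, Map4) and before Flna alike, and the windows of Flnc overlap, so these are matches of letters and not counts of independent sites.

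Pfn1 encodes profilin 1, which binds actin monomers and feeds them to growing filaments. Its signal was 27122, 25594 and 26559 on the chow arrays. At 3 mg/kg/day it was 27084, 23990 and 20685 after 2 days and 19382, 17518 and 22010 after 14 days. At 10 mg/kg/day it was 15462, 12725 and 15025 after 2 days and 14250 and 16123 after 14 days. The higher dose was below the lower dose on every array, and a single array at 3 mg/kg/day for 2 days stood within the chow range. On the scale of log2(signal + 72), used for all differences here, the 4 rosiglitazone groups averaged -0.56 ± 0.11 (SE) relative to chow, or -32.4%. Pfn1 differed from chow by -0.15 ± 0.14 at 3 mg for 2 days, -0.43 ± 0.14 at 3 mg for 14 days, -0.88 ± 0.14 at 10 mg for 2 days and -0.80 ± 0.15 at 10 mg for 14 days. The difference of 10 mg from 3 mg, averaged over both times, was -0.55 ± 0.10, the widest among the brightest probe sets of the 8 genes, and that of 14 from 2 days was -0.10 ± 0.10.

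Cfl1 encodes cofilin 1, which severs actin filaments and returns monomers to the pool. Its brightest probe set, 1455138_x_at, had 36104, 33338 and 33181 on chow. The 11 rosiglitazone arrays ran from 29670 through a median of 33859 to 41943. These ranges overlapped on both sides, with 5 rosiglitazone arrays below and 4 above all chow arrays, and the average difference was 0.02 ± 0.09. Its other probe set, 1448346_at, had a lowest signal of 10711, a median of 11494 and a highest of 14579 on the rosiglitazone arrays, against 17711, 14287 and 12899 on chow. There the 10 mg arrays (10711 to 11494) were all below the chow arrays, while the 3 mg arrays overlapped them, and the average difference was -0.30 ± 0.09. The suffix of the brightest probe set marks probes that may also bind transcripts of other genes, and the label of lower signal held for Cfl1 on the other probe set alone.

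Arpc4 encodes subunit 4 of the Arp2/3 complex, which nucleates branched filaments. Its signal on the chow arrays was 6308, 6779 and 7004. At 3 mg/kg/day it was 6665, 5139 and 4405 after 2 days and 5065, 4692 and 5178 after 14 days. At 10 mg/kg/day it was 4789, 4104 and 4125 after 2 days and 4694 and 4319 after 14 days. All but 1 rosiglitazone array were below chow, the exception being the same 3 mg, 2 day array (array A) that was high for Pfn1. Arpc4 averaged -0.48 ± 0.10 relative to chow. Group differences ran from -0.33 ± 0.13 at 3 mg for 2 days to -0.62 ± 0.13 at 10 mg for 2 days, and the dose difference was -0.22 ± 0.10. The other probe set of Arpc4 gave an average of -0.49 ± 0.15 and a time difference of -0.32 ± 0.14, where the brightest gave -0.02 ± 0.10.

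Flna encodes filamin A, the filamin of most cell types, which crosslinks filaments and ties them to integrins and membrane proteins. It had a lowest signal of 67120, a median of 72104 and a highest of 90496 on the 11 rosiglitazone arrays. The chow arrays had 74799, 72401 and 67505. Of the rosiglitazone arrays, 5 were above all chow arrays and 1 was below them. The average difference was 0.07 ± 0.08, and the 4 group differences lay between -0.05 ± 0.11 at 10 mg for 14 days and 0.18 ± 0.10 at 3 mg for 2 days. Flna has 1 probe set here, and it did not have the lower signal for which the genes are named.

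Flnc encodes filamin C, the filamin of striated muscle, where it sits at Z discs and sites of membrane attachment. Its signal was 3666, 3436 and 3125 on the chow arrays. At 3 mg/kg/day it was 3123, 3501 and 2931 after 2 days and 2778, 2369 and 2502 after 14 days. At 10 mg/kg/day it was 2110, 2394 and 2239 after 2 days and 2219 and 1914 after 14 days. The group means stepped down from chow through the lower to the higher dose, and 10 of 11 rosiglitazone arrays were below all chow arrays. The average difference was -0.45 ± 0.10, and by group it was -0.10 ± 0.13, -0.41 ± 0.13, -0.58 ± 0.13 and -0.70 ± 0.14 in the order above. Its time difference, 14 minus 2 days, was -0.22 ± 0.10, beside a dose difference of -0.39 ± 0.10. The other probe set, 1447812_x_at, averaged -0.34 ± 0.10, with a time difference of -0.11 ± 0.09. Skeletal muscle markers, a second place where Flnc is made, summed to 1961 to 19578 on rosiglitazone arrays and 1965 to 25521 on chow arrays, and their part in the Flnc values was not tested.

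Dbn1 encodes drebrin 1, which binds along filament sides and is best known from dendritic spines of neurons. Its signal on chow was 2672, 3016 and 2676. At 3 mg/kg/day it was 2244, 2603 and 2304 after 2 days and 2276, 1778 and 2082 after 14 days. At 10 mg/kg/day it was 1663, 1734 and 1475 after 2 days and 1580 and 2500 after 14 days. All 11 rosiglitazone arrays were below the chow arrays, but the last group held 1 of the lowest and 1 of the highest of them. Dbn1 averaged -0.47 ± 0.12 relative to chow, with its widest group difference, -0.75 ± 0.15, at 10 mg for 2 days. Its other probe set averaged -0.53 ± 0.30 at a much lower signal (123 to 683 on rosiglitazone, 547 to 852 on chow).

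Limd2 encodes LIM domain containing 2, a small protein that in human cells was tied to integrin-linked kinase and cell movement. Its signal was 2300, 2357 and 2973 on chow. At 3 mg/kg/day it was 1839, 1727 and 1725 after 2 days and 1758, 1660 and 1810 after 14 days. At 10 mg/kg/day it was 1628, 1370 and 1586 after 2 days and 2020 and 2094 after 14 days. All 11 rosiglitazone arrays were below the chow arrays, and the higher dose at 14 days stood closest to chow. The average difference was -0.50 ± 0.09, with -0.70 ± 0.11 at 10 mg for 2 days and -0.29 ± 0.13 at 10 mg for 14 days. A second probe set above the filter, 1429104_at, also placed every rosiglitazone array (205 to 565) below every chow array (668 to 858), with an average of -0.80 ± 0.16. There the 10 mg arrays at 14 days were 318 and 349, as low as those at 2 days, so the return towards chow belonged to the brightest probe set.

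Map4 encodes microtubule-associated protein 4, which stabilises microtubules outside neurons and is the member that does not belong to the actin system. Its signal was 8596, 8031 and 10245 on chow. At 3 mg/kg/day it was 6520, 6340 and 5488 after 2 days and 5657, 5190 and 6729 after 14 days. At 10 mg/kg/day it was 7008, 5235 and 5465 after 2 days and 6390 and 5441 after 14 days. All 11 rosiglitazone arrays were below chow and the 4 groups overlapped each other. Map4 averaged -0.58 ± 0.11, and its group differences stayed between -0.54 ± 0.13 and -0.61 ± 0.13, with a dose difference of -0.02 ± 0.10. Its probe sets did not give 1 value: 1416091_at averaged -0.27 ± 0.09 and 1439467_at averaged 0.03 ± 0.21.

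**Figure D1:**
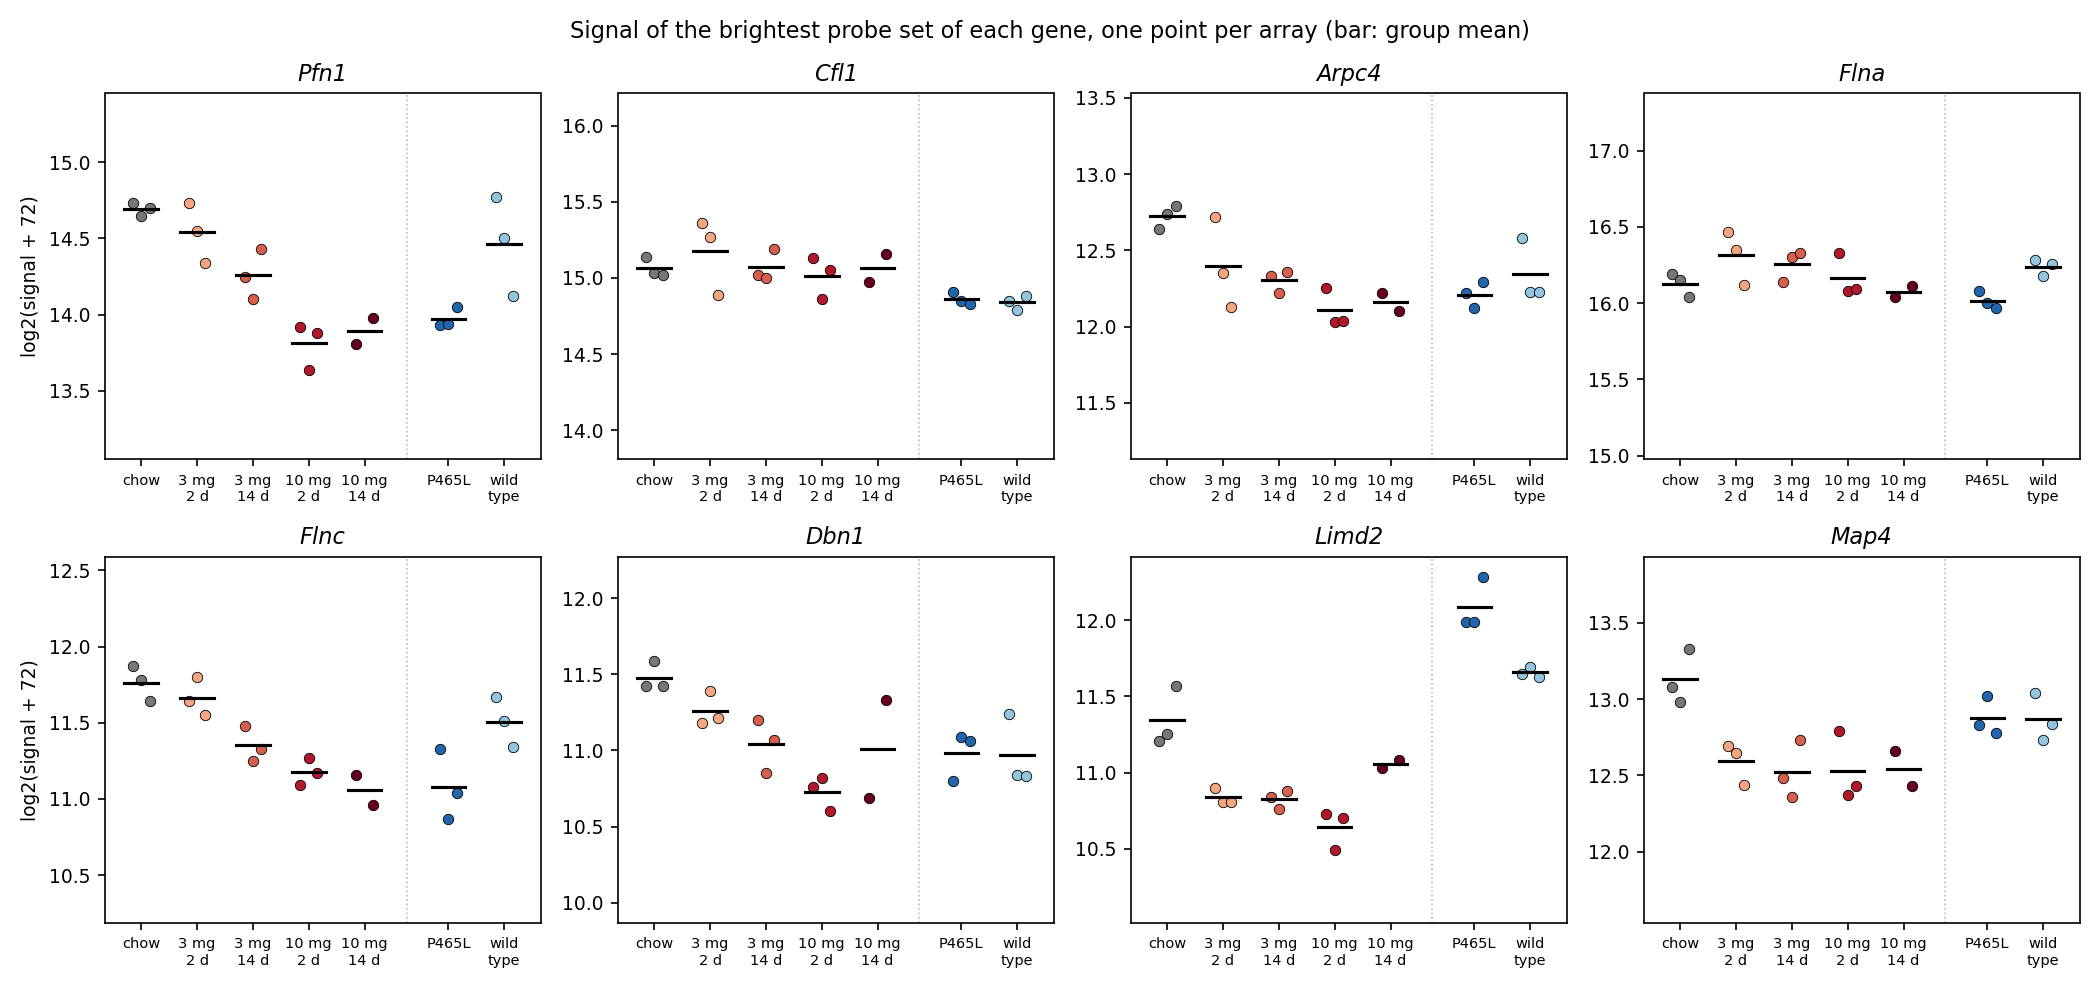
Log2(signal + 72) of the brightest probe set of each gene on the vertical axis, with all panels spanning the same number of log2 units, against the 7 groups (doses in mg/kg/day, d for days). Each point is 1 array and each bar a group mean. Pfn1 and Flnc step down with dose, Map4 sits at 1 lower level in all 4 rosiglitazone groups, Cfl1 and Flna overlap chow, and the 3 P465L arrays of Limd2 (3989, 3991 and 4890) stand above all other arrays.

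On the brightest probe sets, 3 of the 8 genes (Dbn1, Limd2 and Map4) had all 11 rosiglitazone arrays below all 3 chow arrays. This was so for 1.26% of tested genes, and the share among the 8 is set by their choice. On 1416091_at of Map4 the rosiglitazone arrays (5444 to 7140) overlapped chow (6903 to 7448). They also overlapped on 1439467_at of Map4 and on the other probe set of Dbn1, but not on 1429104_at of Limd2. The median difference over the 8 genes was -0.19 at 3 mg for 2 days, -0.43 at 3 mg for 14 days, -0.61 at 10 mg for 2 days and -0.52 at 10 mg for 14 days. Over all tested genes the same medians lay between -0.02 and -0.01. By their differences the genes fell into 3 patterns, described after their values were seen. Pfn1, Flnc, Dbn1 and Arpc4 had lower average signal at the higher dose. Map4 and Limd2 had dose differences of -0.02 ± 0.10 and 0.02 ± 0.09, and Flna and Cfl1 lay around chow. The Limd2 value averaged opposite differences. Relative to chow, Limd2 was at -0.70 at 10 mg and -0.50 at 3 mg after 2 days. After 14 days it was at -0.29 at 10 mg (2 arrays) and -0.52 at 3 mg. Its interaction of dose and time was 0.43 ± 0.17, where that of Map4 was 0.08 ± 0.20. The patterns hold for the brightest probe sets: the other probe set of Limd2, 1429104_at, had a dose difference of -0.60 ± 0.15, that of Flnc -0.13 ± 0.09 and that of Cfl1 -0.28 ± 0.08. Dbn1 had a dose difference of -0.28 ± 0.12 on its brightest probe set and of -0.06 ± 0.28 on its other. On the brightest, the interaction of dose and time for Dbn1, 0.50 ± 0.23, rested on a group of 2 arrays that lay far apart.

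**Figure D2:**
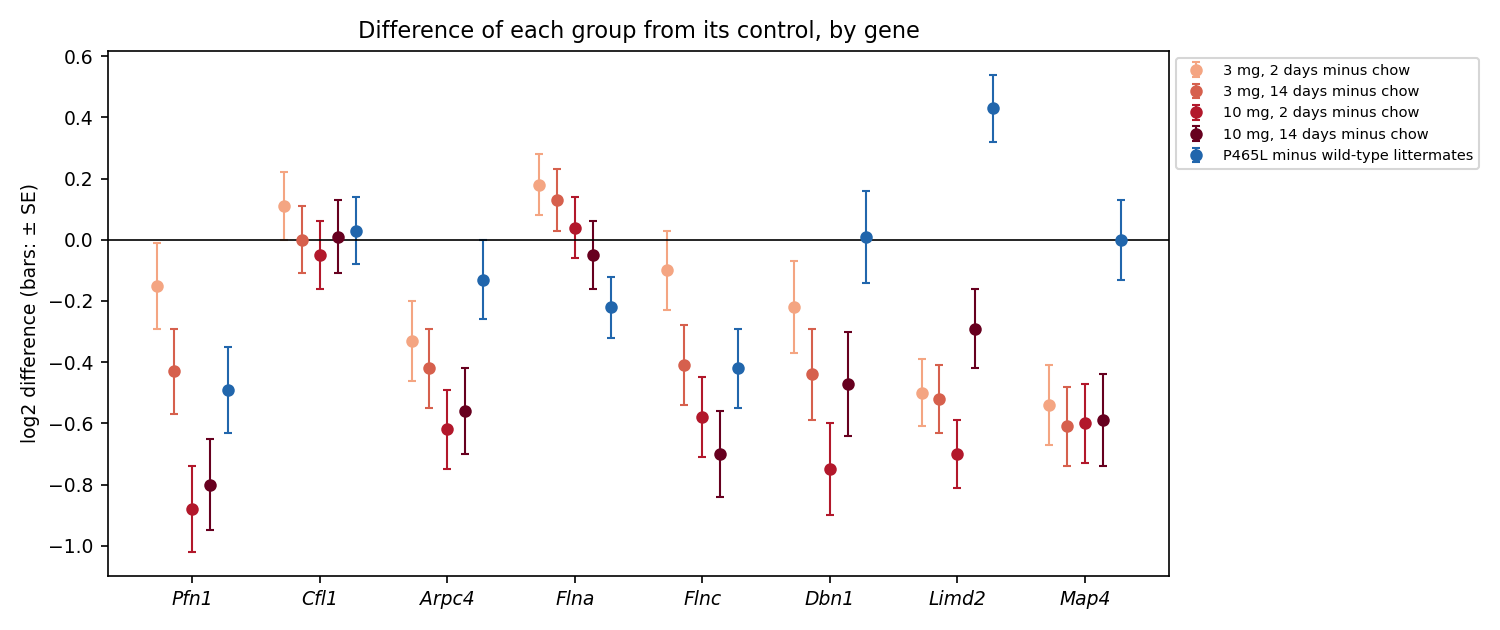
Log2 difference (vertical axis, bars ± SE) of each rosiglitazone group from chow, low to high dose and time, and of P465L from wild-type littermates, for the 8 genes. Pfn1 runs from -0.15 to -0.88 over the rosiglitazone groups, Map4 stays between -0.54 and -0.61, and Limd2 is at 0.43 in P465L.

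Of the 19 probe sets of the 8 genes, 15 passed the filter and 4 (of Map4 and Limd2, with signals from 7 to 580) were too dim. Among the 7 passing probe sets that were not the brightest of their gene, 6 were lower in the rosiglitazone average than on chow and 1, of Map4, was higher. Of all tested genes, 55.0% were lower in this comparison. These probe sets read genes chosen for lower signal, on the same arrays, so their count is not independent of that choice. The 4 dim probe sets were split, with 2 lower and 2 higher. Probe sets target different stretches of a transcript, and which of a pair reads the gene more closely was not tested.

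**Figure D3:**
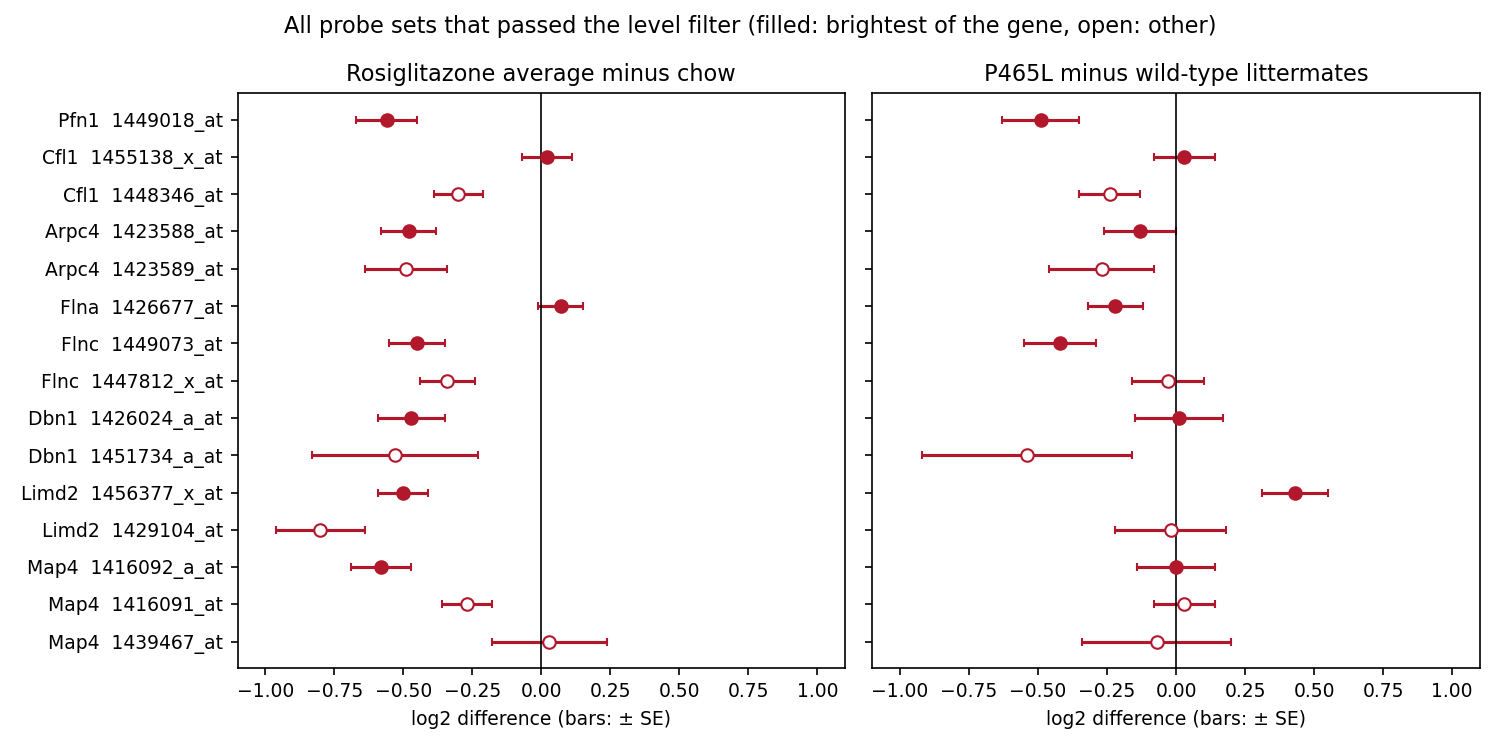
Log2 difference (horizontal axis, bars ± SE, from a fit over probe sets) of the 15 passing probe sets, for the rosiglitazone average minus chow on the left and P465L minus wild-type littermates on the right. Filled points are the brightest probe set of a gene and open points the others. The pairs of Cfl1 (0.02 and -0.30) and Map4 differ on the left, and those of Dbn1 (0.01 and -0.54), Limd2 (0.43 and -0.02), Flnc (-0.42 and -0.03) and Cfl1 (0.03 and -0.24) on the right.

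Interference with PPARγ was not the response for which the genes were chosen. Earlier results of these data were known at that choice, so this comparison is not fully independent of it. No member passed the test, with 0 of 8 called by limma at an adjusted p under 0.05, against 0.018% of all tested genes (2 of 11081). At an unadjusted p under 0.05 there were 4 of the 8, which were Pfn1, Flnc and Flna with lower and Limd2 with higher signal in P465L. Of all 11081 tested genes, 823 were under this level, 3.84% with higher and 3.58% with lower signal. The P465L arrays were wholly below the littermate arrays for 3 members, a pattern found in 6.99% of tested genes, and wholly above for 1, a pattern found in 7.35%. The median difference over the 8 genes was -0.07, against 0.01 over all tested genes.

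Pfn1 had a signal of 15518, 15646 and 16908 in P465L aortas and of 27956, 23085 and 17709 in littermates. The P465L arrays were close together and below the widely spread littermates. The log2 difference was -0.49 ± 0.14, or -28.8% (limma, unadjusted p 0.00176, adjusted p 0.494). The sign was the same as that of rosiglitazone minus chow, for interference with the receptor and for its activation.

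Flnc had 2509, 1800 and 2038 in P465L aortas and 3180, 2843 and 2517 in littermates. The groups came within a few units of each other, and the difference was -0.42 ± 0.13 (limma, adjusted p 0.494). On its other probe set Flnc had 1709, 1781 and 1721 in P465L and 1910, 1873 and 1556 in littermates, which overlapped, with a difference of -0.03 ± 0.13. Skeletal muscle markers summed to 3439 to 39432 on P465L arrays and 11872 to 63539 on littermate arrays, with a median difference of -1.31 over 6 tested genes, and their part in the Flnc difference was not tested.

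Flna had 69289, 65650 and 64304 in P465L aortas and 79438, 74193 and 78285 in littermates. The difference was -0.22 ± 0.10 (limma, adjusted p 0.652), and the groups did not overlap. Under quantile normalization it was -0.04 (limma, adjusted p 0.876). Smooth muscle markers moved the same way, with 6 of 7 below 0 and a median of -0.25, and their part in the Flna difference was not tested.

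Limd2 ran opposite to these, with 3989, 3991 and 4890 in P465L aortas and 3132, 3229 and 3098 in littermates. Its brightest probe set gave 0.43 ± 0.11 (limma, unadjusted p 0.00127, adjusted p 0.479), the highest difference among the 8. On 1429104_at, the P465L arrays had 687, 713 and 976 and the littermates 728, 950 and 718, which overlapped (-0.02 ± 0.20). The higher Limd2 signal in P465L therefore rested on 1 of the 2 probe sets above the filter, and that one is of the kind that may bind other transcripts.

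Arpc4 had 4712, 4373 and 4946 in P465L aortas against 6052, 4741 and 4717 in littermates (-0.13 ± 0.13). Cfl1 had 30807, 29553 and 29065 against 29549, 28193 and 30032 in littermates on its brightest probe set (0.03 ± 0.11). On 1448346_at Cfl1 had 8501, 8610 and 8836 in P465L and 11146, 10249 and 9349 in littermates, which did not overlap (-0.24 ± 0.11). Dbn1 had 1712, 2114 and 2059 in P465L and 2344, 1762 and 1747 in littermates (0.01 ± 0.15). On its dimmer probe set, 1451734_a_at, Dbn1 had 380, 382 and 453 in P465L and 801, 536 and 553 in littermates, without overlap (-0.54 ± 0.38). Map4 had 7198, 8212 and 6942 in P465L and 8378, 6719 and 7242 in littermates (0.00 ± 0.13). On the brightest probe sets the arrays of both groups overlapped for Arpc4, Cfl1, Dbn1 and Map4, and none of these 4 had an unadjusted p under 0.05.

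The controls of both experiments were not at the same level for these genes. Littermates were below chow by -0.51 ± 0.15 for Dbn1 and -0.38 ± 0.13 for Arpc4, with all 3 littermate arrays below all chow arrays for both, and likewise for Cfl1 (-0.22 ± 0.11). That pattern was found in 16% of all tested genes (1771), and limma called 719 genes (6.49%) between these groups, so both controls differed widely. Limd2 was above chow in littermates by 0.31 ± 0.11. The median over the 8 genes was -0.24, against -0.04 over all tested genes. These groups differ in cohort and may differ in strain background, which cannot be told apart here, and the chow arrays are the same ones that serve the rosiglitazone comparison. The 8 genes were chosen for signal lower than on these chow arrays, so their chow values may be high by that choice. Littermate values below chow can follow from it, and the -0.24 is a description without a test.

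The 8 genes varied together in part. Over the 20 arrays, the mean of their centred log2 values was 0.27 ± 0.02 (SD) on chow, 0.08 ± 0.14 at 3 mg for 2 days, -0.07 ± 0.10 at 3 mg for 14 days, -0.25 ± 0.09 at 10 mg for 2 days and -0.16 ± 0.05 at 10 mg for 14 days (n = 3 each, 2 in the last). It was -0.01 ± 0.03 in P465L and 0.09 ± 0.13 in littermates (n = 3 each). The step from chow to the rosiglitazone groups is set by the choice of the genes and does not show that they varied together. Once each array was set against its group mean, the 28 pairs of genes had a median Pearson r of 0.32, from -0.32 for Flnc with Limd2 to 0.85 for Flna with Cfl1. The next highest was Pfn1 with Arpc4, at 0.70. These are descriptions over 20 arrays, whose genes share the array, its scaling and its RNA pool. On the brightest probe sets, Flna and Cfl1, which did not have lower signal there, were the pair that varied most alike between arrays of a group. The other probe set of Cfl1, which had lower signal, was not part of these correlations.

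By the likeness of their log2 values over the 20 arrays to the mean of the 8 genes, the nearest other genes were Lta4h (r = 0.909), Axl (0.884), Cdc37 (0.881), Glmp (0.872), Psmd2 (0.868), Kars (0.866), Tbrg1 (0.865), Gtf3a (0.863), Tsen34 (0.86) and Copg1 (0.856). The matched mean holds the lower signal after rosiglitazone for which the 8 were chosen, so likeness to it partly follows from that choice. The rosiglitazone averages of these genes ran from -0.39 (Lta4h) to -0.20 (Copg1). None of these genes is in the lists of cytoskeletal genes, which hold 188 of the 11081 tested genes. By the likeness of deviations from the group means, the nearest other genes were Rcn3 (0.939), Brk1 (0.928), Inpp5a (0.926), Tmed3 (0.919), Srp68 (0.917), Tbrg1 (0.915), Tsen34 (0.909), Ntn1 (0.907), Pofut2 (0.906) and Serpinh1 (0.905). Of these, Brk1, a subunit of the WAVE complex that switches on Arp2/3, is a cytoskeletal gene, and its rosiglitazone average was -0.04.

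The lists of other cytoskeletal genes were also made with earlier results of these data known, but not as genes with lower signal. The sizes of their differences therefore cannot be set against those of the 8. Of 211 other genes in 7 lists of actin and microtubule genes, 188 were tested, and limma called 0 of them in the rosiglitazone average, against 0.433% of all tested genes (48 of 11081). Array weights called 6 of the 188 and averaged probe sets 1, and without chow array A, B or C the 48 became 3, 11 and 1. At an unadjusted p under 0.05, 23 of the 188 were lower and 9 higher, where 8.37% of all tested genes (927) were lower and 5.79% (642) higher. Their differences ranged from -0.47 to 0.48 with a median of -0.03, against -0.02 for all tested genes. The counts by list below are read against these same shares of all tested genes.

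Close relatives of Pfn1 and Cfl1 did not follow one pattern. Pfn2, the second profilin, averaged -0.29 ± 0.09 relative to chow (limma, adjusted p 0.163). Cfl2, the cofilin of muscle, averaged 0.04, and Dstn, the related severing protein destrin, 0.14. In the list of monomer handling, severing and capping, 7 of 31 tested genes were lower and 0 higher at an unadjusted p under 0.05, with a median of -0.13. Capg, which caps filament ends and is abundant in macrophages, was at -0.36 (limma, adjusted p 0.129).

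The tested partner subunits of Arpc4 in the Arp2/3 complex were near chow. Actr3 averaged 0.07, Arpc1a -0.07, Arpc2 -0.02 and Arpc5 -0.03, while Actr2, Arpc1b and Arpc3 were not analysed here. Of 25 tested genes of the complex and its activators, 1 was lower at an unadjusted p under 0.05, which was Washc5 (-0.24), a subunit of the endosomal WASH complex, and the median was -0.03. Washc2, of the same complex, was at -0.15.

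Among 28 tested crosslinking and side-binding proteins, relatives of Flna, Flnc and Dbn1, 3 were lower and 2 higher at an unadjusted p under 0.05, with a median of 0.00. The higher ones included Fscn1, the bundling protein fascin, at 0.48 (limma, adjusted p 0.123), and Pls3, plastin 3, at 0.20. Dbnl, the drebrin-like protein, averaged -0.15. In the list of focal adhesion and LIM proteins, which holds Limd1 (0.13), 5 of 34 were lower and 2 higher, among them Pdlim4 at -0.39 (adjusted p 0.123 in limma) and the integrin subunit Itgb1 at -0.28 (adjusted p 0.141 in limma). In the microtubule list, with Map1a at -0.04 and Map1b at -0.01, 2 of 27 were lower and 1 was higher, and the median was -0.10. The lowest p-values there were those of Clasp2, which holds growing microtubule ends, at 0.24 and of the tubulin Tubb5 at -0.21.

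Actin isoforms and genes of the serum response factor pathway had 3 of 22 lower and 3 higher at an unadjusted p under 0.05, with the tropomyosin Tpm3 at -0.27, the myosin light chain Myl12a at 0.26 and a list median of 0.06. Between P465L and littermates, limma called 0 of the 188 genes, with 12 higher and 5 lower at an unadjusted p under 0.05 (3.84% and 3.58% of all tested genes) and a median of 0.01. Acta2, smooth muscle actin, was at -0.30 and Myl9, its regulatory myosin light chain, at -0.32, while Bcar1, an adhesion scaffold, was at 0.71 (limma, adjusted p 0.65).

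The genes with the lowest p-values of the other lists in P465L, none of them called, were on both sides of 0. Lower in P465L than in littermates were Coro1b (-0.33), a coronin that acts on Arp2/3 branches, Dstn (-0.19) and Nckap1 (-0.27), a subunit of the WAVE complex. Higher were the adaptor Nck2 (0.39), the filament-binding proteins Palld (0.30) and Lima1 (0.35), the adhesion protein Tns3 (0.22), the tubulin Tubb2b (0.43) and the microtubule-binding Map7 (0.47). Of the relatives of the members, Pfn2 was at 0.19, Cfl2 at 0.12, Actr3 at 0.25, Arpc1a at -0.16, Arpc2 at 0.03, Arpc5 at 0.19, Dbnl at -0.01, Limd1 at -0.03, Map1a at -0.10 and Map1b at -0.06.

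**Figure D4:**
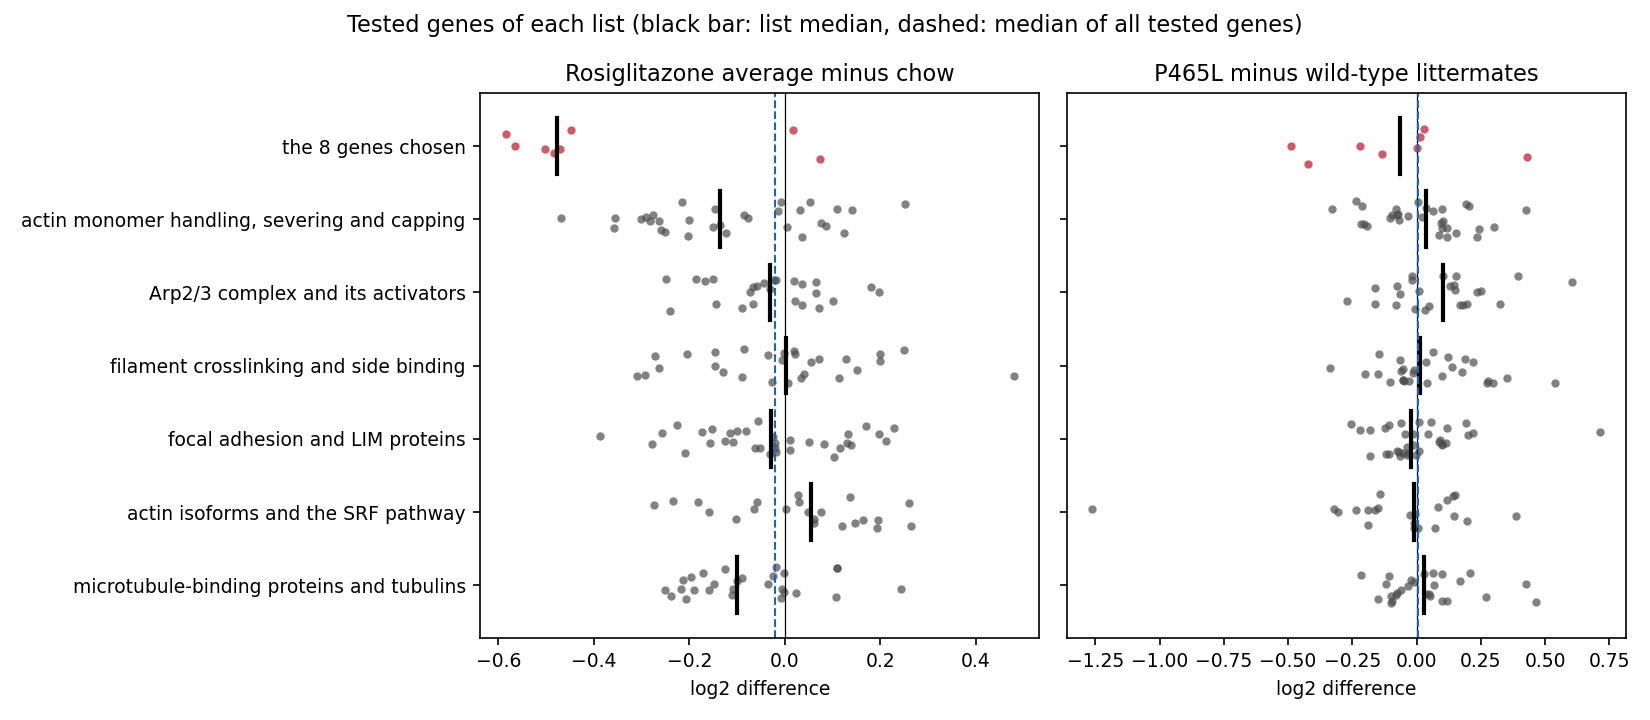
Log2 difference (horizontal axis) of each tested gene in the 8 chosen genes and in 6 of the 7 other lists, for the rosiglitazone average minus chow on the left and P465L minus wild-type littermates on the right. Points are genes, black bars list medians and the dashed line the median of all tested genes. The bar of the 8 genes is at -0.48 on the left, a value set by their choice for lower signal after rosiglitazone. It therefore cannot be set against the other lists there, which lie between -0.13 and 0.06. On the right the bar of the 8 genes is at -0.07.

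Among the marker lists of other cells, only the adipocyte sums did not overlap between rosiglitazone and chow arrays. The 14 leukocyte markers, cells rich in profilin, cofilin and Arp2/3, summed to 65612 to 92859 on rosiglitazone arrays and 83863 to 116688 on chow arrays. Of the 13 tested, 12 were below 0, with a median of -0.33, and limma called 0. In P465L they summed to 71615 to 82276, against 63444 to 73896 in littermates, with 2 of 13 below 0. Adipocyte markers, found on the array for 5 of 7, summed to 126797 to 246639 on rosiglitazone arrays and 70729 to 121295 on chow arrays, without overlap, and to 84263 to 160444 in P465L against 141675 to 200992 in littermates.

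Endothelial markers summed to 23444 to 32800 on rosiglitazone and 31626 to 39369 on chow. Of the 7, all tested, 4 were below 0, with a median of -0.11, and limma called 1 lower (Pecam1). Of the 4 tested adipocyte markers 1 was below 0, with a median of 0.79, and 1 was called higher (Fabp4). Fibroblast markers summed to 160747 to 220158 on rosiglitazone and 170251 to 210247 on chow. Cardiac markers summed to 1842 to 9800 on rosiglitazone and 2966 to 4851 on chow, and the 2 elastic matrix markers to 78926 to 124494 on rosiglitazone and 95824 to 97318 on chow. In P465L the endothelial markers summed to 28664 to 29601, against 29735 to 37163 in littermates, with 6 of 7 below 0. The elastic matrix markers summed to 92276 to 97948 in P465L and 98181 to 109746 in littermates, also without overlap. Fibroblast and cardiac sums overlapped between P465L and littermates. The markers that did not pass the filter were Cd3e, Lep, Myh4, Nppa and Tnni3. The part of any of these cells in the lower signal of Pfn1, Flnc, Arpc4, Dbn1, Limd2 and Map4 was not tested.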

How the data were processed

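RNA pools of mouse aorta were hybridized to Affymetrix Mouse Genome 430 2.0 arrays, 2 or 3 per group, and a replicate is a pool of 8 aortas. The deposited intensity values were made by the authors with MAS5, per the submitters' processing notes, as 1 linear signal per probe set. Which version was run is not stated in those notes. The deposited values showed a common scaling, with a mean of 1500 after 2% was trimmed at each end, which assumes that most signal did not differ between arrays. Dim signals are noisy under MAS5.

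Of 45101 probe sets, 34945 had 1 gene symbol, 932 several, 9160 none and 64 were controls, and those without a single symbol were left out. Each gene took its brightest probe set, and genes whose mean reached the 50th percentile of all probe sets (a signal of 352) were tested. Values were log2(signal + 72). With limma 3.58.1 in R 4.3.3, each of the 7 groups got a mean in a model over the 20 arrays (13 residual and 7.3 prior degrees of freedom, variance trend), with two-sided tests and Benjamini-Hochberg adjustment over 11081 genes. Precision is limited by the number of arrays. The p-values set each difference against the spread between pools within groups, estimated over all 7 groups. The model was tested on simulated data. Tables and figures were made with Python 3.11.15, numpy 2.4.6, pandas 2.3.3, scipy 1.17.1 and matplotlib 3.10.9.

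The members and lists were chosen with earlier results of these data known. Named genes were the 8 members, fixed relatives, the 2 smallest p-values per list and comparison where no gene was called, and the 10 genes most like the members by each measure. Array letters did not pair the arrays: over 57 pairs with the same letter, deviations from group means had a median r of 0.025 (-0.301 to 0.358). Alternatives changed the offset, the filter, the probe set, the scaling, the variance model, the array weights, the arrays fitted, a replicate block and each array left out. A list and 1 relative of the members are not reported here by themselves. The other probe sets in place of the brightest were added after seeing the data.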

Additional observations from a re-analysis of the deposited data

How the results depend on the processing

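The 6 members with a lower rosiglitazone average kept that sign under all settings that kept the brightest or averaged probe sets. Their averages ranged from -0.66 to -0.12, with Limd2 at -0.12 and Map4 at -0.27 when the probe sets of a gene were averaged, while Flna reached -0.06 under quantile normalization and Cfl1 -0.14 with averaged probe sets. In place of the brightest, 1 probe set turned the sign of Map4 (0.03). No member was called in P465L under any setting. There, averaged probe sets gave -0.11 for Cfl1, -0.26 for Dbn1 and -0.10 for Limd2, and quantile normalization gave -0.00 for Dbn1, -0.01 for Map4 and -0.04 for Flna (-0.22 as deposited). The other probe sets gave -0.24 for Cfl1, -0.54 for Dbn1, -0.07 for Map4 and -0.02 for Limd2. Leaving out 1 array at a time gave Dbn1 from -0.06 to 0.15 and Map4 from -0.07 to 0.09, and the P465L median of the members (-0.07) became 0.01 without littermate array A, -0.13 without array B or C, and -0.21 with averaged probe sets.

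Of all genes, the rosiglitazone average called 48, but 28 with no variance trend, 260 with array weights and 1 to 83 with 1 array left out (3, 11 and 1 without chow array A, B or C, 75 and 83 without array A or B at 3 mg for 2 days, 29 without array B at 3 mg for 14 days, 28 without array A at 10 mg for 14 days). P465L called 2, but 1 with averaged probe sets, quantile normalization or no variance trend, 6 with array weights, 0 with its experiment's arrays alone and 0 to 3 with 1 array left out. With the array letter as a replicate block the counts were 52 and 1. Of the related cytoskeletal genes, averaged probe sets called 1 in the rosiglitazone average (Wasf2, -0.41) and array weights 6 (Pfn2, Capg, Pdlim4, Rhoa and Tpm3 lower, Fscn1 higher), against 0. The causes were not tested. The 2 or 3 pools a group limit the precision.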
